A study of Mus musculus with 38 samples.

Results

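The genes described here are 42 mouse chemokine ligands and receptors that direct leukocyte traffic, taken by name from 55487 genes in the tables: 27 ligands, 11 classical receptors and 4 atypical receptors. They were measured by RNA sequencing in omental tumors of a pair of transplanted mouse models of high-grade serous ovarian cancer (HGSOC), and in the cancer cells of each model grown alone. The 60577 cells were injected into the peritoneum of female FVB mice and the HGS2 cells into that of female C57BL/6J mice, all 8 to 9 weeks old. Treated mice received 3 weekly intraperitoneal doses of carboplatin (20 mg/kg) with paclitaxel (10 mg/kg), beginning on day 21 after injection for 60577 and day 49 for HGS2, and control mice received vehicle. The time points TP1, TP2 and TP3 lay 1, 7 and 21 days past the final dose, and TP3 had no control tumors. In 60577 there were 3 control and 3 treated tumors at TP1, 3 control and 4 treated at TP2, and 4 treated at TP3. In HGS2 there were 3 and 3 at TP1, 4 and 3 at TP2, and 4 treated at TP3, of which replicate 1 was left out of the fits because it is not in the study's own sample tables. Each cell line gave 2 cultures. Mouse strain, cancer line and time since injection all differ between the models and cannot be told apart, and each model rests on 1 cell line.

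Chemokines are small secreted proteins that draw leukocytes along a gradient through receptors coupled to G proteins. CC ligands such as Ccl2 and Ccl7 call monocytes, CXC ligands such as Cxcl1, Cxcl2 and Cxcl5 call neutrophils through Cxcr2, and the interferon-induced Cxcl9 and Cxcl10 call activated T cells through Cxcr3. Atypical receptors bind chemokines without G protein signalling, and some of these receptors remove them. The omentum, a fat depot with lymphoid clusters, is the usual site of spread of this cancer.

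Many of the members lie side by side in the genome (GRCm38, GENCODE M21). Ccl2, Ccl7, Ccl11, Ccl12 and Ccl8 followed each other at chr11:82035571-82116799, and Ccl5, Ccl9, Ccl6, Ccl3 and Ccl4 at chr11:83525778-83664683. Cxcl5, Cxcl3, Cxcl15, Cxcl1 and Cxcl2 lay at chr5:90759360-90905938 and Cxcl9 and Cxcl10 at chr5:92321347-92348889. Among the receptors, Ccr9, Cxcr6, Xcr1, Ccr1, Ccr3 and Ccr2 lay at chr9:123678439-124113557. Promoter windows from RefSeq (GRCm38.p6, 250 bases before to 50 after the start) were at hand for 32 members, in 34 windows. The kappaB-like core GGAATTTCC, searched on both strands, stood in 5 of these 34 windows, those of Cxcl1, Cxcl2, Cxcl3, Cxcl10 and Ccr3, and in 0.317% of all 32851 windows. The AP-1 letters TGACTCA stood in 4 of the 34 windows against 5.2% of all, and the IRF-like GAAANNGAA in 5 of the 34 against 8.56%. Cxcl1, Cxcl2 and Cxcl3 are shown because these neighbors have a block of their own in the results on 60577 tumors, and Cxcl10 because it differed between the models. Capitals mark the kappaB-like core, each sequence ends at the base before the start and reads along the gene's strand, and a match of letters is a description only. They come from chr5:90891125-90891244, chr5:90903779-90903898 and chr5:90785981-90786100 on the plus strand and chr5:92348890-92349059 on the minus strand.
Cxcl1: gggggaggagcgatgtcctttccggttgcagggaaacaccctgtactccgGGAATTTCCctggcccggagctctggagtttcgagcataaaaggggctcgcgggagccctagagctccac
Cxcl2: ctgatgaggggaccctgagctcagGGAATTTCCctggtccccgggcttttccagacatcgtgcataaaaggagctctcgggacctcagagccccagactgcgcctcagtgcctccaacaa
Cxcl3: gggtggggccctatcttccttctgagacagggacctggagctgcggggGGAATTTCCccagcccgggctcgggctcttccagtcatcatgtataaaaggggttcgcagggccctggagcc
Cxcl10: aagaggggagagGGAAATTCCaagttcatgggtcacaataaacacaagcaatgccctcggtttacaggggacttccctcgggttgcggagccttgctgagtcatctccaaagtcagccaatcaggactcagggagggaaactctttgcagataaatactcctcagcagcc

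Tumor libraries held between 17839635 and 49299442 counts in genes (median 27358649) and cell line libraries between 31633121 and 42461995. Levels are given per library, in replicate order, as CPM, counts scaled to a common library size with the trimmed mean of M-values (TMM). Of the 42 members, 38 reached 1 CPM in at least 25% of the tumors and were tested there. Ccl20, Ccl28, Cxcl15 and Ccr10 were not. Epithelial markers (Epcam, Krt8, Krt18, Krt19, Cdh1) summed to between 1327 and 2589 CPM in 60577 control tumors but to between 18.8 and 663 CPM in HGS2 control tumors, whose fibroblast markers summed to between 10380 and 34936 CPM. In 60577, control replicate 2 at TP2 stood apart from the other 2: its epithelial sum was 2589 CPM and its endothelial sum 40 CPM. Digestive enzyme genes of the exocrine pancreas took over 1% of the counts in 3 HGS2 tumors, namely TP1 control replicate 3 (5.03%), TP2 control replicate 2 (8.27%) and TP3 treated replicate 2 (5.47%). The study describes its tumors as taken from individual mice. For the cell lines no source used here says whether the cultures were separate, so p-values there measure the spread between these samples, which may be technical.

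In tests, fold changes are log2 values ± SE from edgeR's quasi-likelihood fit of all genes in the table, and the edgeR adjusted p is two-sided and Benjamini-Hochberg adjusted over 16241 genes in tumors and 13742 in cell lines. A gene is said to have risen or fallen, or to be called, where this p was below 0.05 and the log2 fold change was beyond 1 in size. In these bulk samples, fewer cells of a type and less RNA per cell cannot be told apart.

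Per kilobase of exon (RPKM, group mean), the ligands at the top of the list differed between groups. In 60577 control tumors at TP1, Cxcl16, the ligand of Cxcr6, was highest at 36.5 RPKM, followed by the monocyte attractant Ccl2 at 28.0 RPKM. After treatment at TP1 the macrophage-derived ligands Ccl6 and Ccl9 led, at 149 and 62.0 RPKM. Ccl6 also led in the TP2 controls, at 48.3 RPKM, where replicate 2 was the highest at 166 CPM. The monocyte attractant Ccl8 led in treated 60577 tumors at TP2 (66.3 RPKM) and TP3 (107 RPKM), and in all 5 groups of HGS2 tumors (67.7 to 186 RPKM). The HGS2 TP3 mean includes replicate 1, the tumor left out of the fits. Ccl8 was at 94.9 CPM in it and at 28.7, 8.23 and 23.4 CPM in the other TP3 tumors. The lead of Ccl8 at HGS2 TP3 thus leans on that tumor, and the order without it was not worked out. The members' CPM summed to 568 ± 123 (SD, n = 3) in 60577 controls and 1392 ± 249 (SD, n = 3) in treated tumors at TP1, and the individual tumors did not overlap.

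One day after chemotherapy, 60577 tumors carried more RNA for inflammatory ligands. Of the 38 members tested, 15 were higher and 1 was lower, against 9.65% of all genes higher and 5.96% lower. Their median log2 fold change was 1.18, against 0.00 over all genes. All 5 inflammatory CC ligands rose (median 3.40), as did 3 of 4 tested neutrophil-attracting CXC ligands (median 2.78) and 2 of 3 eosinophil and mucosal CC ligands. The monocyte attractant Ccl7 was at 3.75, 7.1 and 6.52 CPM in controls and 17.9, 20.7 and 34.8 CPM in treated tumors (log2 fold change 2.07 ± 0.34, edgeR adjusted p = 0.000379), without overlap, and was the 1 of 4 in its role that rose. Neither interferon-induced ligand and none of the 4 atypical receptors was called.

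**Figure D1:**
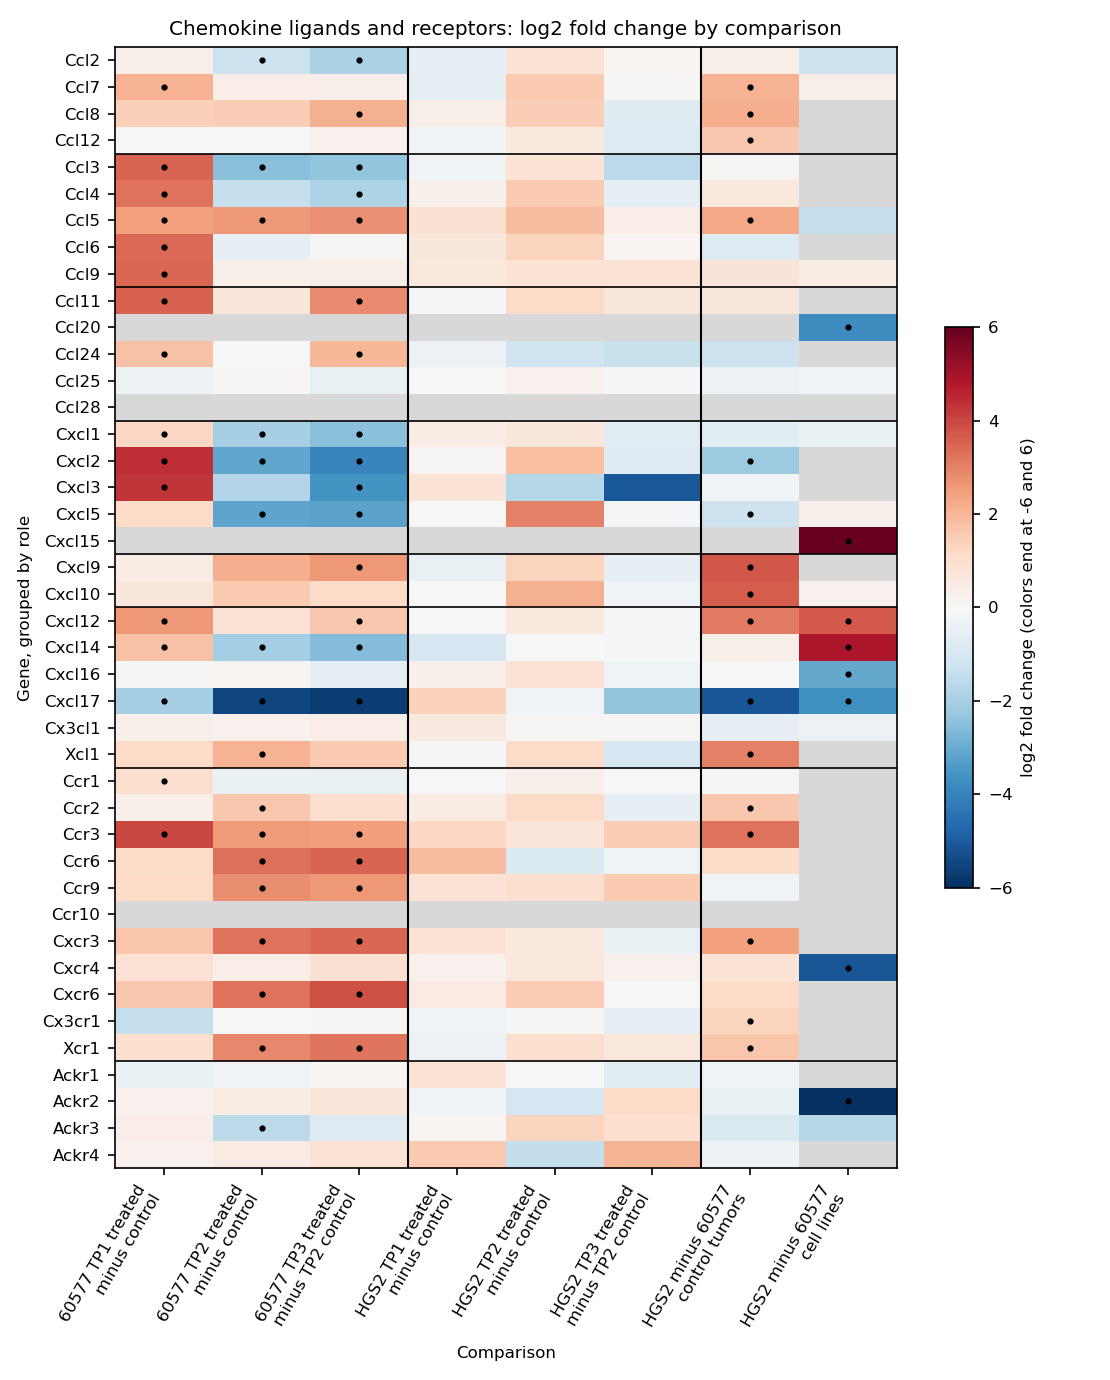
Heat map of log2 fold changes (color scale) of the members (rows, grouped by role with lines between roles) in 8 comparisons (columns); dots mark called changes and grey cells genes not tested. The inflammatory CC ligands carry 5 dots at 60577 TP1, the receptors 7 at 60577 TP2, and the HGS2 treatment columns carry none.

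Among the neutrophil attractants at TP1, Cxcl2 (ENSMUSG00000058427, chr5:90903871-90905938) measured 0.701, 1.56 and 1.36 CPM in the 3 control tumors and 24.9, 4.72 and 48.9 CPM in the 3 treated tumors (log2 fold change 4.43 ± 1.20, edgeR adjusted p = 0.0108). Its neighbor Cxcl3 (ENSMUSG00000029379, chr5:90786103-90789600) went from 0.245, 0.507 and 0.26 CPM to 9.43, 2.13 and 8.49 CPM (log2 fold change 4.30 ± 1.09, edgeR adjusted p = 0.00725). For both ligands every treated tumor lay above every control, with treated replicate 2 the lowest of the treated. Cxcl1 (ENSMUSG00000029380, chr5:90891241-90893115) was at 10, 10.7 and 12.3 CPM and 22.5, 17.3 and 39.8 CPM (log2 fold change 1.26 ± 0.45, edgeR adjusted p = 0.0416), again without overlap. Cxcl5 (ENSMUSG00000029371, chr5:90759360-90761624) was at 6.91, 5.46 and 7.17 CPM in controls and 12.8, 4.9 and 26.6 CPM in treated tumors, where treated replicate 2 fell below all controls and the difference was not called (log2 fold change 1.18 ± 0.70, edgeR adjusted p = 0.215). Neutrophil markers (S100a8, S100a9, Csf3r, Cxcr2, Mmp8, Retnlg) summed to 9.47, 22.5 and 21.8 CPM in controls and 70.9, 34.4 and 156 CPM in treated tumors, with treated replicate 2 again lowest. Of the 5 tested, 5 rose. Their part in the ligand changes was not tested.

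The inflammatory CC ligands, which attract mainly monocytes and T cells, all rose at TP1. Ccl3 (ENSMUSG00000000982, chr11:83647844-83649355) went from 0.105, 0.585 and 0.779 CPM to 5.7, 2.02 and 9.35 CPM (log2 fold change 3.51 ± 1.05, edgeR adjusted p = 0.0182), and its neighbor Ccl4 from 0.316, 0.273 and 0.454 CPM to 3.6, 0.888 and 5.57 CPM (log2 fold change 3.24 ± 0.81, edgeR adjusted p = 0.007). Neither overlapped, and treated replicate 2 was lowest for both. Ccl6 (ENSMUSG00000018927, chr11:83587882-83593087) measured 15.3, 27.3 and 32.7 CPM in controls and 335, 229 and 238 CPM in treated tumors (log2 fold change 3.40 ± 0.65, edgeR adjusted p = 0.00109). Ccl9 (ENSMUSG00000019122, chr11:83572919-83578636) measured 10.9, 22.6 and 18.5 CPM and 235, 122 and 209 CPM (log2 fold change 3.43 ± 0.51, edgeR adjusted p = 0.000179). These were the widest gaps in absolute level within the role. Ccl5, made largely by T cells, went from 0.842, 1.75 and 1.23 CPM to 2.26, 12.4 and 6.31 CPM (log2 fold change 2.45 ± 0.70, edgeR adjusted p = 0.0146), and here treated replicate 2 was the highest. T cell markers (Cd3d, Cd3e, Cd3g, Cd8a, Cd4) summed to 17.5, 55 and 25.6 CPM in the same treated tumors, also highest in replicate 2, against 5.19, 14.8 and 11.2 CPM in controls. 2 of these 5 markers rose, and their part in the Ccl5 change was not tested.

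Eosinophil attraction runs through Ccr3 and its ligands Ccl11 (eotaxin) and Ccl24. Ccl11 (ENSMUSG00000020676, chr11:82057823-82062955) rose from 0.175, 1.05 and 1.04 CPM to 6.24, 6.86 and 13.4 CPM (log2 fold change 3.53 ± 1.01, edgeR adjusted p = 0.0145). Ccl24 rose by 1.77 ± 0.56 (edgeR adjusted p = 0.0239) on the log2 scale. Ccr3 (ENSMUSG00000035448, chr9:124021972-124031689) rested on 0, 1 and 3 counts in the control libraries and 17, 37 and 16 counts in the treated ones (0, 0.039 and 0.0974 CPM against 0.542, 1.31 and 0.623 CPM, log2 fold change 4.01 ± 0.61, edgeR adjusted p = 0.000208), so its fold change depends on the prior count. Of the eosinophil markers Siglecf, Prg2, Epx and Il5ra, only Siglecf was expressed enough to be tested in tumors and it was not called at TP1. Their sum was 0.14, 0.78 and 1.04 CPM in controls and 1.69, 1.35 and 1.79 CPM in treated tumors.

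Cxcl12 (ENSMUSG00000061353, chr6:117168535-117181367), the stromal ligand that retains Cxcr4-bearing cells, had the lowest adjusted p of the members at TP1. It measured 33.2, 41.8 and 58 CPM in controls and 250, 169 and 396 CPM in treated tumors (log2 fold change 2.61 ± 0.34, edgeR adjusted p = 6.77e-05). No tumors overlapped. Fibroblast markers (Pdgfra, Pdgfrb, Dcn, Lum, Col3a1) summed to 2495, 3523 and 3513 CPM and 13034, 9068 and 10214 CPM in the same tumors, and their part was not tested. The epithelial ligand Cxcl14 also rose (log2 fold change 1.78 ± 0.51, edgeR adjusted p = 0.0145), though treated replicate 2 at 15.2 CPM lay inside the control range. Cxcl17 (ENSMUSG00000060188, chr7:25400053-25412886), a mucosal and epithelial chemokine, was the 1 member that fell, from 8.38, 7.25 and 8.76 CPM to 2.87, 1.67 and 1.6 CPM (log2 fold change -1.99 ± 0.44, edgeR adjusted p = 0.00295). Epithelial markers summed to 1327, 1530 and 1624 CPM in controls and 439, 522 and 267 CPM in treated tumors, and 5 of the 5 fell. Mesothelial markers (Msln, Upk3b, Lrrn4) summed to 1627, 1693 and 1714 CPM and 606, 755 and 446 CPM, and 3 of 3 fell. Their part in the Cxcl17 change was not tested.

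The TP1 count rested in part on control replicate 1, which was the lowest control for every called member except Ccl4 and Cxcl17. Without it 8 of the 16 members remained called, while calls over all genes went from 2535 to 1989. The others missed the threshold narrowly or clearly: Cxcl2 at 4.15 (edgeR adjusted p = 0.0507), Ccl11 at 3.06 (adjusted p = 0.0634), Ccl5 at 2.21 (adjusted p = 0.0653), Ccl3 at 3.03 (adjusted p = 0.0754), Ccl24 at 1.31, Cxcl14 at 1.50, Cxcl1 at 1.19 and Ccr1 at 0.85. Ccl6, Ccl7, Ccl9, Ccl4, Cxcl3, Cxcl12, Cxcl17 and Ccr3 stayed past it when any 1 tumor was left out. Cxcl1 also lost its call without any 1 of control replicates 2 and 3 and treated replicates 1 and 3, and Ccl24 without control replicate 3 or treated replicate 1 or 2. Treated replicate 3 was needed for Ccl3 (2.95 without it), Cxcl14 (1.08) and Ccr1 (0.95), treated replicate 1 for Ccr1 (0.91) and treated replicate 2 for Ccl5 (1.74).

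**Figure D2:**
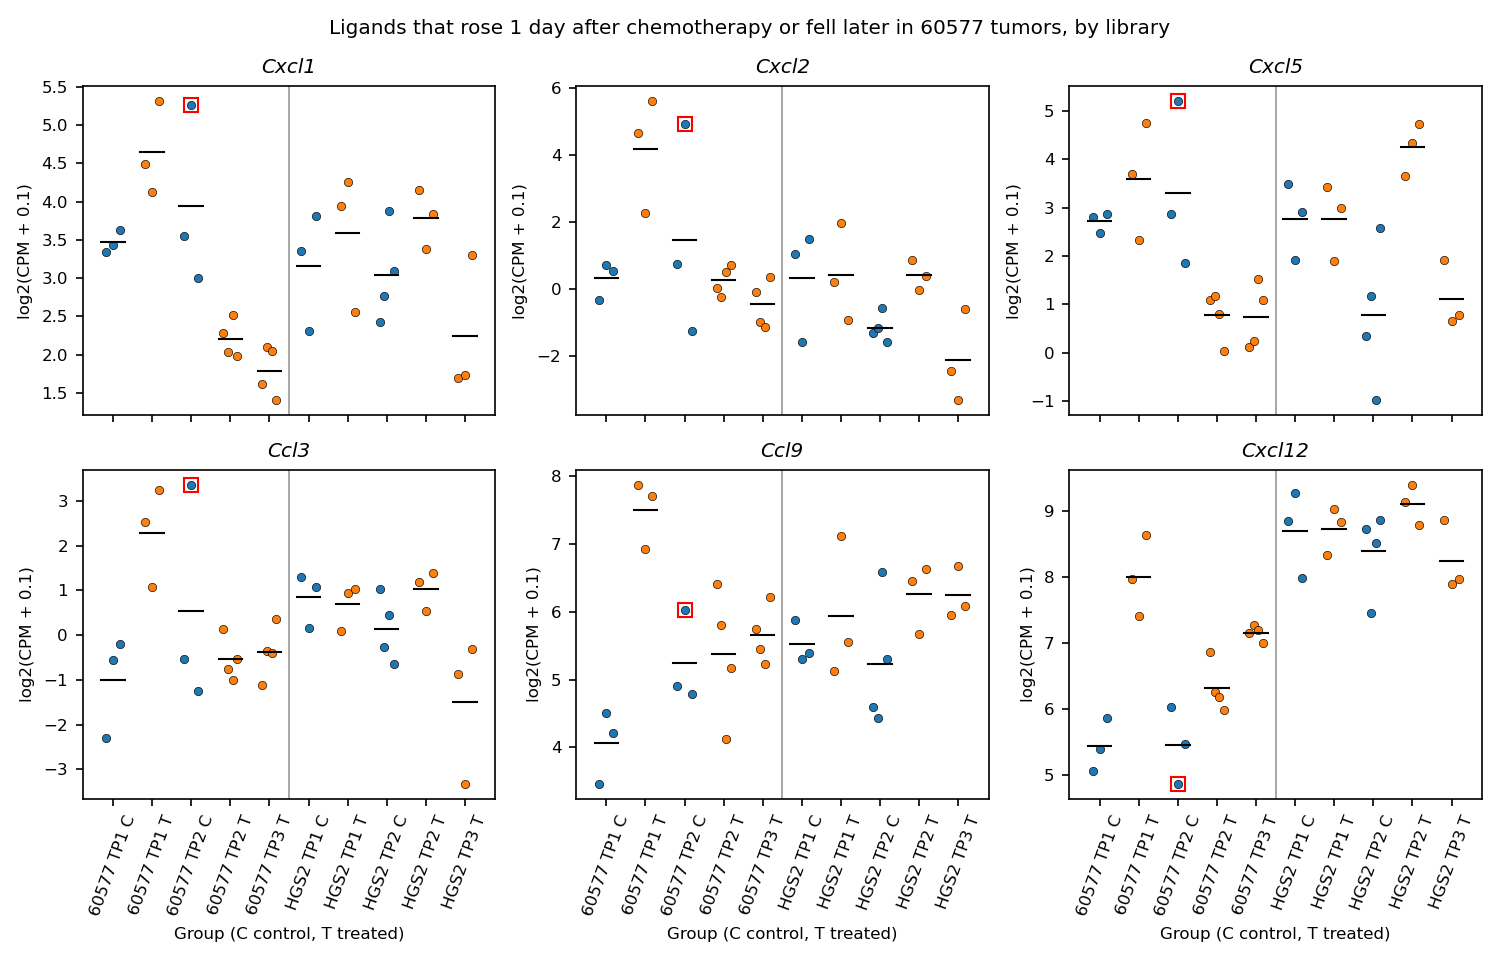
Levels of Cxcl1, Cxcl2, Cxcl5, Ccl3, Ccl9 and Cxcl12 by group, as log2(CPM + 0.1); each point is 1 tumor (blue control, orange treated), black lines are group means, and the red square is 60577 TP2 control replicate 2. In 60577 at TP1 the treated tumors sit above the controls for all but Cxcl5, and at TP2 the red square sits far above the other 2 controls for Cxcl2, Cxcl5 and Ccl3.

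One week after the last dose lymphoid receptors were higher in treated 60577 tumors. At TP2, 9 members were higher and 8 lower, against 14.8% and 9.61% of all genes, with a median of 0.28 against 0.03. Of the 10 receptors tested 7 rose (median 2.67) and none fell, while 3 of the 4 neutrophil-attracting ligands fell. Ccr6 (ENSMUSG00000040899, chr17:8236043-8257141), carried by B cells and some T cells, measured 1.22, 0.0637 and 1.29 CPM in the 3 controls and 9.6, 5, 10 and 7.22 CPM in the 4 treated tumors (log2 fold change 3.29 ± 0.66, edgeR adjusted p = 0.000708). Cxcr6 (ENSMUSG00000048521, chr9:123806475-123811760), of tissue-resident T cells, measured 2.53, 0.255 and 1.17 CPM and 19.5, 12.4, 8.37 and 9.2 CPM (log2 fold change 3.28 ± 0.62, edgeR adjusted p = 0.000479). Both were higher in every treated tumor than in any control, and control replicate 2 was lowest in both.

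Cxcr3 (ENSMUSG00000050232, chrX:101731535-101734269), the receptor of effector T cells for Cxcl9 and Cxcl10, measured 2.34, 0.0318 and 0.524 CPM in controls and 12.5, 8.26, 5.62 and 9.87 CPM in treated tumors (log2 fold change 3.28 ± 0.70, edgeR adjusted p = 0.00118). Ccr9 (ENSMUSG00000029530, chr9:123678439-123784330), which guides lymphocytes and plasmacytoid dendritic cells to the gut, measured 1.28, 0.318 and 1.41 CPM and 10.5, 6.42, 5.71 and 4.1 CPM (log2 fold change 2.80 ± 0.52, edgeR adjusted p = 0.00046). Xcr1 (ENSMUSG00000060509, chr9:123852315-123862029), the receptor that marks type 1 dendritic cells, measured 1.22, 0.191 and 0.443 CPM and 7.42, 5.18, 2.43 and 2.87 CPM (log2 fold change 2.89 ± 0.61, edgeR adjusted p = 0.00108). In all 3 the groups did not overlap. Ccl5 (ENSMUSG00000035042, chr11:83525778-83530518) measured 3.82, 0.478 and 1.05 CPM and 20.1, 10.2, 6.06 and 6.29 CPM (log2 fold change 2.62 ± 0.67, edgeR adjusted p = 0.00384), without overlap. The monocyte receptor Ccr2 rose by 1.63 ± 0.43 (edgeR adjusted p = 0.0048) on the log2 scale, and Ccr3 by 2.54 ± 0.54 (edgeR adjusted p = 0.00115) from 3, 2 and 3 counts in controls. Xcl1, the ligand of Xcr1, rose by 2.07 ± 0.64 (edgeR adjusted p = 0.0129) on the log2 scale, from 14, 4 and 2 counts in controls. T cell markers summed to 21.2, 4.39 and 9.51 CPM in controls and 120, 71.2, 53.7 and 68.8 CPM in treated tumors, with 5 of 5 of them called higher, and 3 of 4 markers of type 1 dendritic cells rose. The B cell genes Ms4a1 (log2 fold change 3.70) and Cd79a (3.27) rose too. NK cell markers (Ncr1, Klrb1c, Klra8, Prf1) summed to 1.45, 0.0637 and 0.605 CPM and 5.63, 3.87, 2.26 and 3.5 CPM, and both that could be tested, Klrb1c and Prf1, rose. Adipocyte markers (Adipoq, Plin1, Lep, Cidec) summed to 3.95, 0.828 and 5.6 CPM in controls and 472, 83.4, 60.3 and 72 CPM in treated tumors, and 4 of 4 rose. The part of these markers in the receptor changes was not tested.

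**Figure D3:**
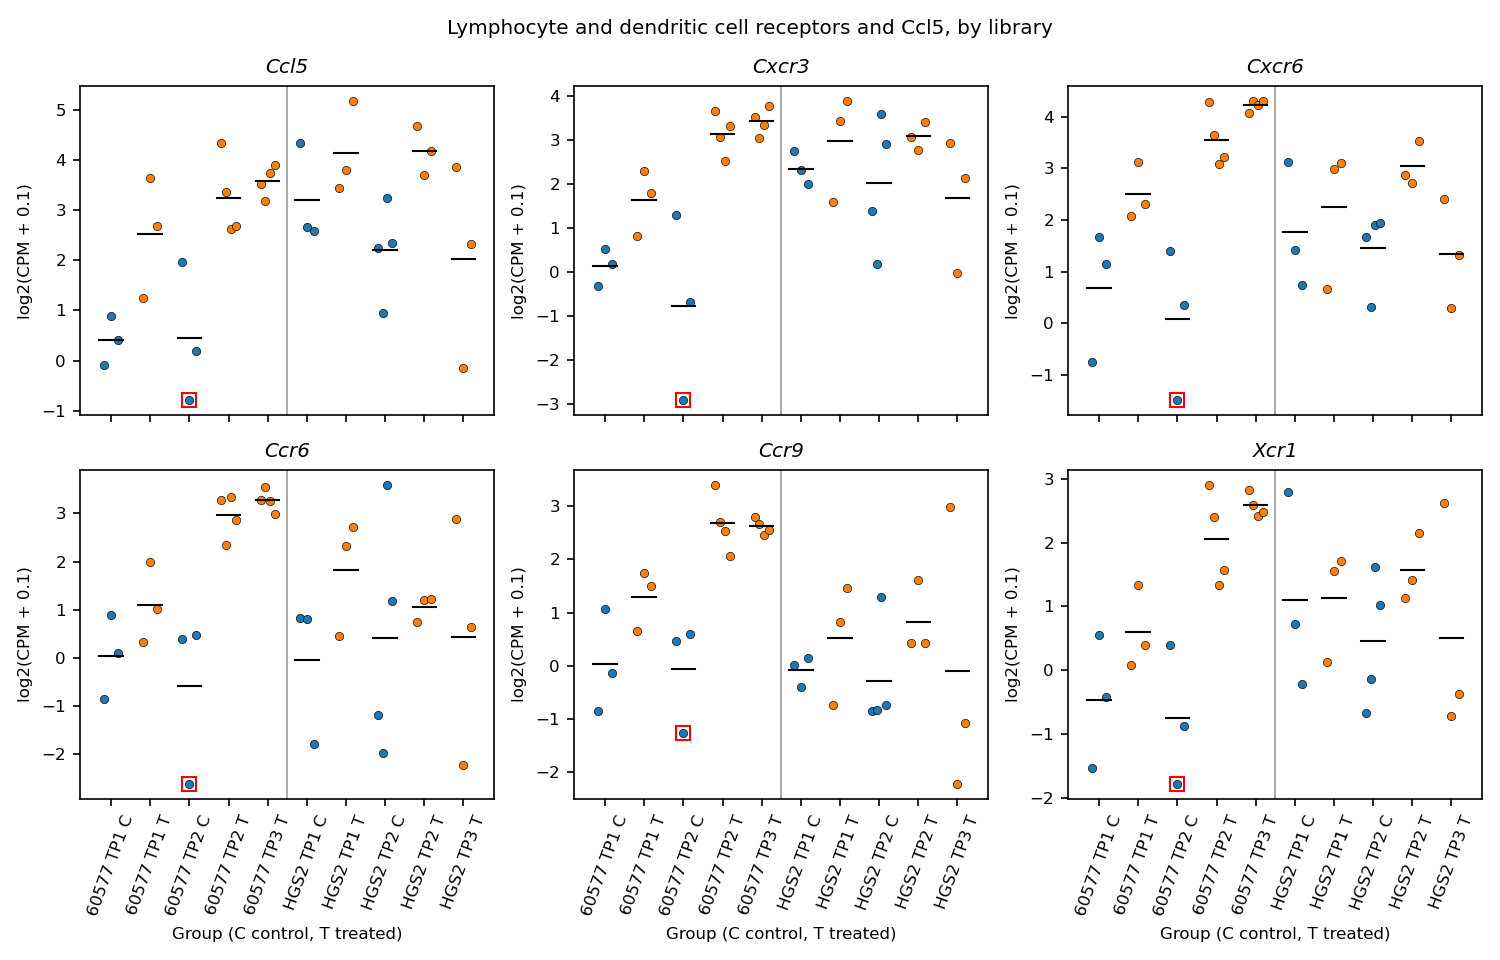
Levels of Ccl5, Cxcr3, Cxcr6, Ccr6, Ccr9 and Xcr1 by group, as log2(CPM + 0.1); each point is 1 tumor (blue control, orange treated), black lines are group means, and the red square is 60577 TP2 control replicate 2. Treated 60577 tumors at TP2 and TP3 sit above the controls in all 6 panels, and in HGS2 the treated tumors sit above the controls at TP2 for Ccl5 and Cxcr6 and overlap them in the other 4 panels and, at TP1, in all 6.

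Among the genes that fell at TP2, Cxcl17 was at 9.97, 16 and 11.6 CPM in controls and 0.0358, 0.568, 0.31 and 0.112 CPM in treated tumors (log2 fold change -5.52 ± 0.48, edgeR adjusted p = 1.53e-06). The treated values rest on 1, 16, 7 and 3 counts, so the size of this fold change depends on the prior count. Epithelial markers summed to 1598, 2589 and 1625 CPM and 267, 444, 195 and 205 CPM, 5 of 5 fell, and their part was not tested. Ccl2 (ENSMUSG00000035385, chr11:82035571-82037453) was at 41.2, 54.1 and 26.9 CPM and 18.3, 19.5, 12.7 and 12.5 CPM (log2 fold change -1.31 ± 0.24, edgeR adjusted p = 0.000414), and Cxcl14 had a log2 fold change of -2.04 ± 0.48 (edgeR adjusted p = 0.00221). Cxcl17, Ccl2 and Cxcl14 did not overlap between the groups. The neutrophil attractants depended on 1 control tumor. Cxcl5 was at 7.17, 36.7 and 3.51 CPM in controls and 2.04, 2.16, 1.64 and 0.931 CPM in treated tumors (log2 fold change -3.15 ± 0.69, edgeR adjusted p = 0.0014), and Cxcl1 at 11.6, 38.2 and 7.94 CPM and 4.77, 4.01, 5.62 and 3.84 CPM (log2 fold change -2.00 ± 0.42, edgeR adjusted p = 0.00109). Treated tumors lay below all controls for both, and control replicate 2 was far above the other controls. Cxcl2 was at 1.58, 30.2 and 0.322 CPM in controls and 0.932, 0.745, 1.33 and 1.56 CPM in treated tumors (log2 fold change -3.14 ± 1.04, edgeR adjusted p = 0.0176), and Ccl3 at 0.592, 10.2 and 0.322 CPM and 1, 0.497, 0.398 and 0.596 CPM (log2 fold change -2.49 ± 0.91, edgeR adjusted p = 0.0293). For both, treated tumors lay within or near the range of control replicates 1 and 3 and below replicate 2. The scavenging receptor Ackr3 had a log2 fold change of -1.57 ± 0.31 (edgeR adjusted p = 0.000743).

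Without control replicate 2, 13 of the 17 TP2 calls remained, while calls over all genes went from 3969 to 3433. Cxcl2 moved to 0.30 (edgeR adjusted p = 0.778) and Ccl3 to 0.49 (adjusted p = 0.594), both now positive, while Ackr3 shrank to -0.78 and Xcl1 to 1.76 (adjusted p = 0.0558). Ccl3 also lost its call without treated replicate 2, 3 or 4, and Xcl1 without control replicate 3 (1.72, adjusted p = 0.0508). Cxcl5 at -1.60 and Cxcl1 at -1.04 kept their calls with smaller changes. Calls for Ccl2, Cxcl14, Cxcl17, Ccl5, Ccr2, Ccr3, Ccr6, Ccr9, Cxcr3, Cxcr6 and Xcr1 were kept. Neutrophil markers summed to 24.7, 47.4 and 17.8 CPM in the 3 TP2 controls and 20.5, 17.4, 19.9 and 19.3 CPM in treated tumors, highest in control replicate 2, and 3 of the 5 tested fell when all 3 controls were used.

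**Figure D4:**
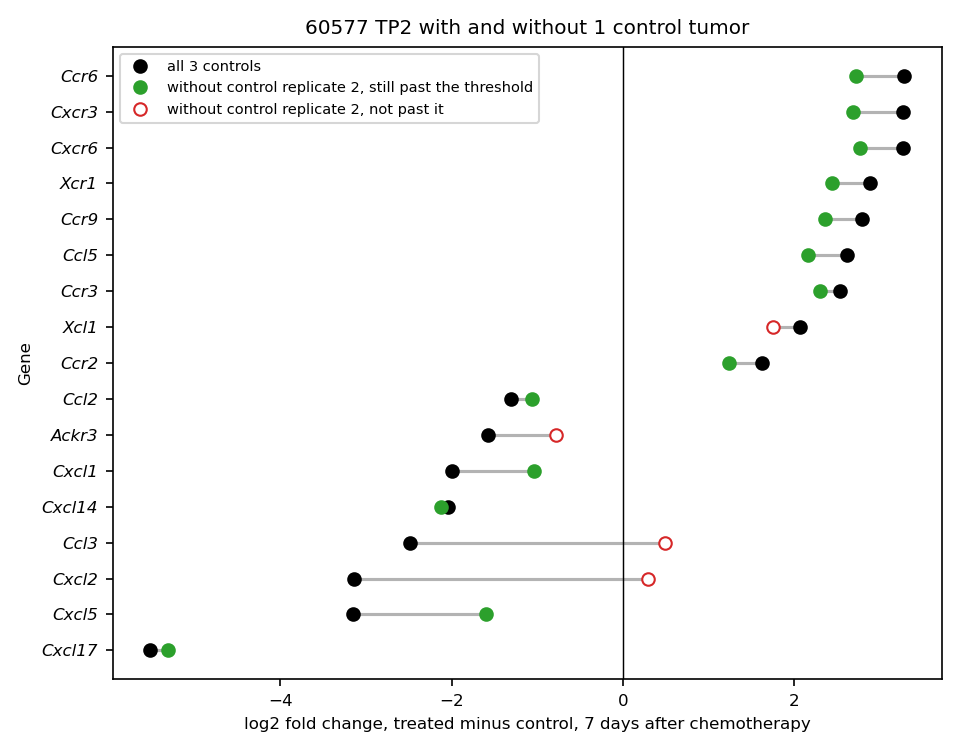
Log2 fold change (x axis) of the 17 members called at 60577 TP2, 1 gene per row; black points use all 3 controls, and the joined points leave out control replicate 2 (green still past the threshold, open red no longer past it). Cxcl2 moves from -3.14 to 0.30 and Ccl3 from -2.49 to 0.49, while Cxcl17 and the lymphoid receptors stay past the threshold.

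At TP3 treated tumors could be compared only with TP2 controls, so treatment and time cannot be told apart. In that comparison 12 members were higher and 9 lower, against 14.2% and 10.2% of all genes, with a median of 0.38 against 0.00. The TP2 comparison shares these controls. The 6 receptors that rose at TP3 were Ccr3, Ccr6, Ccr9, Cxcr3, Cxcr6 and Xcr1. Cxcr6 reached 16.8, 19.7, 18.6 and 19.6 CPM (log2 fold change 3.80 ± 0.63, edgeR adjusted p = 0.000153), Ccr6 9.58, 11.6, 9.42 and 7.86 CPM (log2 fold change 3.48 ± 0.66, edgeR adjusted p = 0.000454) and Cxcr3 11.4, 8.1, 10.1 and 13.6 CPM (log2 fold change 3.45 ± 0.70, edgeR adjusted p = 0.000817). All 4 tumors lay above the controls for each. Xcr1 was at 7.02, 5.95, 5.27 and 5.51 CPM (log2 fold change 3.23 ± 0.62, edgeR adjusted p = 0.000474) and Ccl5 at 11.3, 8.99, 13.2 and 14.8 CPM (log2 fold change 2.74 ± 0.67, edgeR adjusted p = 0.0031), also clear of the controls. Ccl11 was at 11.6, 14.3, 9.52 and 17.6 CPM (log2 fold change 2.83 ± 0.92, edgeR adjusted p = 0.0177), and Ccl24, Cxcl12, Ccl8 and Cxcl9 rose by 1.99, 1.61, 2.11 and 2.60. T cell markers summed to 102, 113, 104 and 120 CPM, with 5 of 5 higher, while the eosinophil marker Siglecf was lower (-1.70). The 4 eosinophil markers summed to 0.592, 1.27 and 1.05 CPM in TP2 controls and 1.21, 2.22, 1.14 and 2.75 CPM in TP3 tumors, so their sum was not lower. The B cell genes Ms4a1 (5.06) and Cd79a (4.54) rose, as did both tested NK cell markers. Without TP2 control replicate 2, 4 of 5 T cell markers were higher (Cd8a lost its call at TP2 and TP3) and Siglecf was at -1.44 (edgeR adjusted p = 0.0853). The part of these markers was not tested.

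All 4 tested neutrophil attractants were lower at TP3. Cxcl17 was at 0.146, 0.205, 0.229 and 0.371 CPM (log2 fold change -5.69 ± 0.48, edgeR adjusted p = 3.8e-07) and Cxcl5 at 0.988, 1.09, 2.78 and 2.04 CPM (log2 fold change -3.19 ± 0.69, edgeR adjusted p = 0.00122). Both lay below every control, and Cxcl17 rested on only 4, 6, 7 and 12 counts. Epithelial markers summed to 195, 169, 206 and 270 CPM, and their part in the Cxcl17 value was not tested. Cxcl2 was at 0.841, 0.41, 0.36 and 1.18 CPM (log2 fold change -3.94 ± 1.08, edgeR adjusted p = 0.0067) and Cxcl3 at 0.0732, 0.0683, 0.36 and 0.34 CPM (log2 fold change -3.60 ± 1.00, edgeR adjusted p = 0.0072), each overlapping the low controls. Without TP2 control replicate 2, 15 of the 21 calls remained, while calls over all genes went from 3966 to 3610. Cxcl2 then moved to -0.50 (edgeR adjusted p = 0.658), Cxcl3 to -1.56 (adjusted p = 0.196), Ccl4 to -0.61 (adjusted p = 0.532), Ccl3 to 0.62 (adjusted p = 0.518), Ccl8 to 1.59 (adjusted p = 0.071) and Cxcl9 to 2.02 (adjusted p = 0.0689). Cxcl9 and Ccl8 also lost theirs without TP2 control replicate 3 or TP3 replicate 4, and Cxcl9 without TP3 replicate 1. The calls for Ccl3 and Ccl4 also failed without TP3 replicate 1, 2 or 3, and Ccl11 without TP2 control replicate 3 (2.60, adjusted p = 0.0628). Cxcl5 at -1.65 and Cxcl1 at -1.53 kept theirs.

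The treated 60577 tumors can be compared with each other without any control. From TP1 to TP2, 2 members rose and 15 fell, against 3.58% and 2.44% of all genes, with a median of -0.33 against 0.03. All 4 tested neutrophil attractants and 4 of 5 inflammatory CC ligands fell. The log2 fold change was -4.44 ± 1.07 (edgeR adjusted p = 0.0144) for Cxcl2, -3.05 ± 0.69 (edgeR adjusted p = 0.011) for Cxcl5, -2.46 ± 0.43 (edgeR adjusted p = 0.00389) for Cxcl1 and -3.08 ± 0.90 (edgeR adjusted p = 0.0298) for Cxcl3. Among the CC ligands it was -3.11 ± 0.92 (edgeR adjusted p = 0.0315) for Ccl3, -2.61 ± 0.71 (edgeR adjusted p = 0.0226) for Ccl4, -2.13 ± 0.55 (edgeR adjusted p = 0.0191) for Ccl6 and -1.91 ± 0.43 (edgeR adjusted p = 0.0116) for Ccl9. Every TP2 tumor lay below every TP1 tumor for these 8 genes. Cxcl14 was at -3.56 ± 0.49 (edgeR adjusted p = 0.00215) and Cxcl17 at -2.91 ± 0.48 (edgeR adjusted p = 0.00318) on the log2 scale, whereas Ccr6 (1.87) and Ccr9 (1.49) rose. The 2 rising receptors and Ccl3, Ccl4, Cxcl2, Cxcl3, Ccr1 and Ackr3 lost their call when TP1 treated replicate 1 or 3 was left out. Ccl6 and Ccl9 lost it without replicate 1 (-1.94 and -1.73, adjusted p = 0.0858 and 0.0643) and Cxcl5 without replicate 3 (-2.31, adjusted p = 0.056), so that 7 members were called without replicate 1 and 8 without replicate 3. Calls over all genes fell in the same fits, from 977 to 254 and 416. Leaving out TP2 treated replicate 3 or 4 gave 11 and 10 members, and 619 and 496 of all genes. From TP2 to TP3, 1 member was called, against 3.47% higher and 4.4% lower of all genes: Ccl24, from 1.68, 1.63, 0.575 and 2.05 CPM to 6.66, 7.28, 3.86 and 7.98 CPM (log2 fold change 2.03 ± 0.48, edgeR adjusted p = 0.0077), with no overlap. The members' median was 0.08 against -0.01 over all genes.

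In HGS2 tumors no gene was called after chemotherapy, member or not: 0% higher and 0% lower at TP1, 0% and 0% at TP2 and 0% and 0% at TP3 against TP2 controls, by edgeR. At an unadjusted p below 0.05 there were 1, 10 and 3 of 38 members, and 413, 1233 and 406 of 16241 genes. limma-voom called 0, 0 and 0 members, and DESeq2 called 0, 1 and 0 members and 1, 8 and 5 of all genes. The members' medians were 0.20, 0.82 and -0.12, against 0.00, -0.02 and 0.00 over all genes. The 1 member that DESeq2 called at TP2 was Cxcl5 (DESeq2 adjusted p = 0.025), at 1.17, 2.15, 0.407 and 5.89 CPM in the 4 controls and 12.5, 20.1 and 26.5 CPM in the 3 treated tumors (log2 fold change 3.02 ± 0.72, edgeR adjusted p = 0.588). All 3 treated tumors were above all controls.

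Other members had the same order at TP2 in HGS2 without passing the threshold. Ccl7, a monocyte attractant, was at 24, 6.95, 12.5 and 16.5 CPM in controls and 42.9, 50.1 and 39.9 CPM in treated tumors (log2 fold change 1.56 ± 0.54, edgeR adjusted p = 0.601). Cxcl10 was at 27.8, 3.49, 47.1 and 18 CPM and 72.9, 176 and 67.2 CPM (log2 fold change 2.15 ± 0.75, edgeR adjusted p = 0.601). Ackr3 was at 8.15, 6.1, 10.3 and 15.8 CPM and 19.9, 21.8 and 34.2 CPM (log2 fold change 1.32 ± 0.40, edgeR adjusted p = 0.588). Ccl5 was at 4.66, 1.84, 9.35 and 4.96 CPM and 25.5, 12.9 and 17.9 CPM (log2 fold change 1.85 ± 0.77, edgeR adjusted p = 0.624), and Cxcr6 at 3.07, 1.15, 3.62 and 3.76 CPM and 7.25, 6.44 and 11.5 CPM (log2 fold change 1.53 ± 0.68, edgeR adjusted p = 0.648). In each of these 5, treated and control tumors did not overlap. The same held for Ccl4, Ccl8, Cxcl2, Cxcl16 and Xcl1, and Ackr4 was lower in every treated tumor than in any control. The share of all genes without overlap was not counted, so these orders are descriptions and no result about the members. Ccr6 was at 0.341, 0.154, 12 and 2.17 CPM in controls and 1.57, 2.19 and 2.25 CPM in treated tumors (log2 fold change -0.84 ± 1.30, edgeR adjusted p = 0.875), with control replicate 3 above all treated tumors. At TP1, Cxcl2 was at 1.98, 0.231 and 2.73 CPM and 1.06, 3.83 and 0.425 CPM (log2 fold change 0.08 ± 1.03, edgeR adjusted p = 0.999) and Ccl9 at 58.9, 39.5 and 41.7 CPM and 34.8, 139 and 47 CPM (log2 fold change 0.65 ± 0.56, edgeR adjusted p = 0.999), with control and treated tumors interleaved in both.

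Whether the models responded differently was tested as the HGS2 change minus the 60577 change. At TP1 this difference was called for 0 members higher and 2 lower, against 0.449% and 0.997% of all genes (median -1.01 against -0.03). Cxcl12 was at 459, 617 and 253 CPM in HGS2 controls and 322, 524 and 453 CPM in treated tumors, and the difference from its rise in 60577 was -2.65 ± 0.52 (edgeR adjusted p = 0.0105). For Cxcl14 it was -2.80 ± 0.63 (adjusted p = 0.0207), a call lost without 60577 TP1 control replicate 1 (-2.55, adjusted p = 0.0765), 60577 treated replicate 3 (-2.10, adjusted p = 0.088) or HGS2 treated replicate 1 (-2.76, adjusted p = 0.0617). Without HGS2 TP1 control replicate 2 or treated replicate 2, 5 members were called, while calls over all genes rose from 235 to 647 and 378. The inflammatory CC ligands, which had risen in 60577, had a median difference of -2.81 with 0 of 5 called.

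At TP2, 7 members differed, each with the HGS2 change above the 60577 change, against 3.68% of all genes higher and 3.21% lower (median 0.16 against -0.05). Cxcl17 was at 0.379, 0.154, 0.976 and 0.736 CPM in HGS2 controls and 0.546, 0.557 and 0.349 CPM in treated tumors, which overlapped, and Cxcl2 at 0.303, 0.345, 0.569 and 0.232 CPM and 1.73, 0.875 and 1.2 CPM, which did not. The difference in log2 fold change was 6.16 ± 1.03 (edgeR adjusted p = 0.00281) for Cxcl5, 5.30 ± 1.21 (edgeR adjusted p = 0.0101) for Cxcl17, 4.91 ± 1.50 (edgeR adjusted p = 0.0381) for Cxcl2 and 2.88 ± 0.52 (edgeR adjusted p = 0.00392) for Ackr3. Ccl4 (2.96), Cxcl1 (2.67) and Cxcl14 (2.00) also passed. Cxcl17 rested on 4 to 24 counts per HGS2 tumor at TP2 and on 1 to 16 in treated 60577 tumors. Without 60577 TP2 control replicate 2 the count fell to 3 (Cxcl5, Cxcl17 and Ackr3), with Cxcl2 at 1.47 (adjusted p = 0.526), Cxcl1 at 1.72 (adjusted p = 0.127), Ccl4 at 1.73 (adjusted p = 0.297) and Cxcl14, no smaller, at 2.09 (adjusted p = 0.0608). Leaving out HGS2 TP2 treated replicate 1 also gave 3, and leaving out HGS2 TP2 control replicate 2 or 4 or 60577 TP2 treated replicate 3 or 4 gave 4. Calls over all genes fell as well, from 1120 to 365 without 60577 TP2 control replicate 2. In the other fits they were 619, 853, 821, 694 and 630, in the order named. Ccl4, Cxcl2 and Cxcl14 were the calls that most single tumors could remove. Of the 10 classical receptors tested, none was called, with Ccr6 at -4.16 ± 1.57 (edgeR adjusted p = 0.082) and Cxcr3 at -2.72 ± 1.11 (edgeR adjusted p = 0.107). Ccr6 was called by DESeq2 and without the 3 HGS2 tumors rich in pancreas genes, and Cxcr3 without 60577 TP2 control replicate 1.

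Control tumors of the models differed at baseline. Over TP1 and TP2 together, 13 members were higher and 3 lower in HGS2 (7 tumors) than in 60577 (6 tumors), against 13.2% and 8.81% of all genes, with a median of 0.50 against 0.05. Values here are the lowest, median and highest tumor. Cxcl12 was at 29.1, 43.1 and 65.3 CPM in 60577 and 175, 424 and 617 CPM in HGS2 (log2 fold change 3.12 ± 0.28, edgeR adjusted p = 1.29e-09), with no overlap. Fibroblast markers summed to between 2414 and 3931 CPM in 60577 and between 10380 and 34936 CPM in HGS2 controls, and their part was not tested. Both interferon-induced ligands were higher in HGS2. Cxcl9 was at 0.0637, 1.84 and 7.9 CPM and 1.92, 24 and 153 CPM (log2 fold change 3.73 ± 0.76, edgeR adjusted p = 0.00022), and Cxcl10 at 0.669, 2.05 and 6.65 CPM and 3.49, 27.8 and 91.5 CPM (log2 fold change 3.61 ± 0.65, edgeR adjusted p = 5.95e-05). HGS2 TP2 control replicate 2, one of the tumors rich in pancreas genes, gave the HGS2 minimum of both and overlapped the 60577 range.

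Of the receptors, Cxcr3 was at 0.0318, 0.87 and 2.34 CPM and 1.04, 4.86 and 12 CPM (log2 fold change 2.44 ± 0.60, edgeR adjusted p = 0.00143) and Ccr3 at 0, 0.0805 and 0.121 CPM and 0.192, 0.496 and 2.89 CPM (log2 fold change 3.28 ± 0.65, edgeR adjusted p = 0.000165). Ccr3 rested on 0, 1, 3, 3, 2 and 3 counts in the 60577 controls, so its fold change depends on the prior count. Ccr2, Cx3cr1 and Xcr1 were also higher in HGS2. Ccl5 was at 0.478, 1.14 and 3.82 CPM and 1.84, 5.89 and 20.2 CPM (log2 fold change 2.31 ± 0.58, edgeR adjusted p = 0.00176), overlapping slightly. T cell markers were higher in HGS2 for 3 of 5, and for 2 of 5 without 60577 TP2 control replicate 2, with their part not tested. Of 4 monocyte attractants, 3 were higher: Ccl8 (log2 fold change 2.18 ± 0.55, edgeR adjusted p = 0.0018), Ccl7 (2.09) and Ccl12 (1.64), and so was Xcl1 (log2 fold change 3.03 ± 0.80, edgeR adjusted p = 0.00271). Xcl1 rested on 2, 8, 3, 14, 4 and 2 counts in the 60577 controls, so the size of its fold change also depends on the prior count. The macrophage markers (Adgre1, Csf1r, Cd68, Ly6c2, Mrc1, C1qa) were higher for 6 of 6, with sums of 344 to 827 CPM in 60577 and 999 to 1974 CPM in HGS2 controls. Their part was not tested.

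Lower in HGS2 control tumors were Cxcl17, at 7.25, 9.37 and 16 CPM in 60577 and 0, 0.364 and 0.976 CPM in HGS2 (log2 fold change -5.14 ± 0.69, edgeR adjusted p = 1.03e-06), Cxcl2 (log2 fold change -2.19 ± 0.78, edgeR adjusted p = 0.0215) and Cxcl5 (-1.25). Cxcl17 did not overlap, though it rested on 0 to 24 counts in the HGS2 controls. Of the epithelial markers, 4 of 5 were lower in HGS2 as well, with their part not tested. Without 60577 TP2 control replicate 2, Cxcl2 was at -0.47 (adjusted p = 0.588) and Cxcl5 at -0.48 (adjusted p = 0.428). Cxcl2 also lost its call without HGS2 TP1 control replicate 2 (-1.92, adjusted p = 0.0522), and Cxcl5 without any 1 of 9 tumors. Xcr1 lost its call without any 1 of 5 tumors, down to 0.96 (adjusted p = 0.18) without HGS2 TP1 control replicate 1.

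In the cancer cells grown alone fewer members passed the filter on low counts than in tumors. Of 42, 18 passed in the cell lines against 38 in tumors. Of all 55487 genes, 13742 passed in the cell lines and 16241 in tumors. T cell markers were at 0 for 3 of 5 in 60577 and 5 of 5 in HGS2 cultures. Per kilobase, Ccl2 led in 60577 cells at 105 RPKM and Cxcl14 (89.2 RPKM) and Cxcl12 (71.6 RPKM) in HGS2 cells. Between the lines 3 members were higher and 5 lower in HGS2, against 7.55% and 8.38% of all genes (median -0.38 against -0.03). The lines were fitted in a table of their own and are set beside the tumors with no test.

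Cxcl12 was at 71.5 and 19.3 CPM in the 2 cultures of 60577 and 774 and 397 CPM in those of HGS2 (log2 fold change 3.66 ± 0.73, edgeR adjusted p = 0.027), the same order as in control tumors. Cxcl14 was at 6.3 and 4.62 CPM and 236 and 89.8 CPM (log2 fold change 4.87 ± 0.56, edgeR adjusted p = 0.0072). Cxcl15 (ENSMUSG00000029375, chr5:90794534-90803067), a lung-type neutrophil attractant, was at 0.299 and 0.199 CPM and 38.7 and 36.8 CPM (log2 fold change 7.21 ± 0.32, edgeR adjusted p = 0.00109), although no HGS2 tumor exceeded 0.431 CPM. None of these 3 genes overlapped between the lines. Higher in 60577 cells were Cxcl17 (8.96 and 10.4 against 0.88 and 0.688 CPM, log2 fold change -3.66 ± 0.34, edgeR adjusted p = 0.00453), Cxcl16 (61.2 and 122 against 15.9 and 6.19 CPM, log2 fold change -3.09 ± 0.58, edgeR adjusted p = 0.0235) and Ccl20, the ligand of Ccr6 (2.36 and 2.03 against 0.0338 and 0.275 CPM, log2 fold change -3.78 ± 0.84, edgeR adjusted p = 0.0355). Cxcl17 followed the same order in control tumors, but not all genes called between the lines did. Control tumor medians in 60577 and HGS2 were 110 and 128 CPM for Cxcl16. They were 14.8 and 25.5 CPM for Cxcr4, which was higher in 60577 cells. For Cxcl14 they were close, at 19.6 and 24.1 CPM. Cxcr4 was at 1.3 and 3.05 against 0.0677 and 0.055 CPM (log2 fold change -5.12 ± 0.80, edgeR adjusted p = 0.016). In the HGS2 cultures Cxcr4 rested on 2 and 2 counts and Ccl20 on 1 and 10, so both fold changes depend on the prior count. The scavenger Ackr2 rested on 117 counts in 60577 cultures and 1 in HGS2 cultures, a ratio of 104 whose exact 95% interval, for counting error only, was 18.4 to 4153 (log2 fold change -6.27 ± 1.05, edgeR adjusted p = 0.0181).

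The cell line calls rested on 2 cultures each. With 1 culture left out, the spread comes from the other line's 2 cultures, and the lone culture is assumed to vary like them. Without 60577 culture replicate 2, the calls for Cxcl12 (3.01), Cxcl16 (-2.49), Cxcr4 (-4.37), Ackr2 (-5.71) and Ccl20 (-3.89) were lost. Calls over all genes fell in the same fit, so the loss was not particular to the members. Ccl20 and Ackr2 were also lost without replicate 1. Cxcl14, Cxcl15 and Cxcl17 stayed past the threshold in each of these fits.

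**Figure D5:**
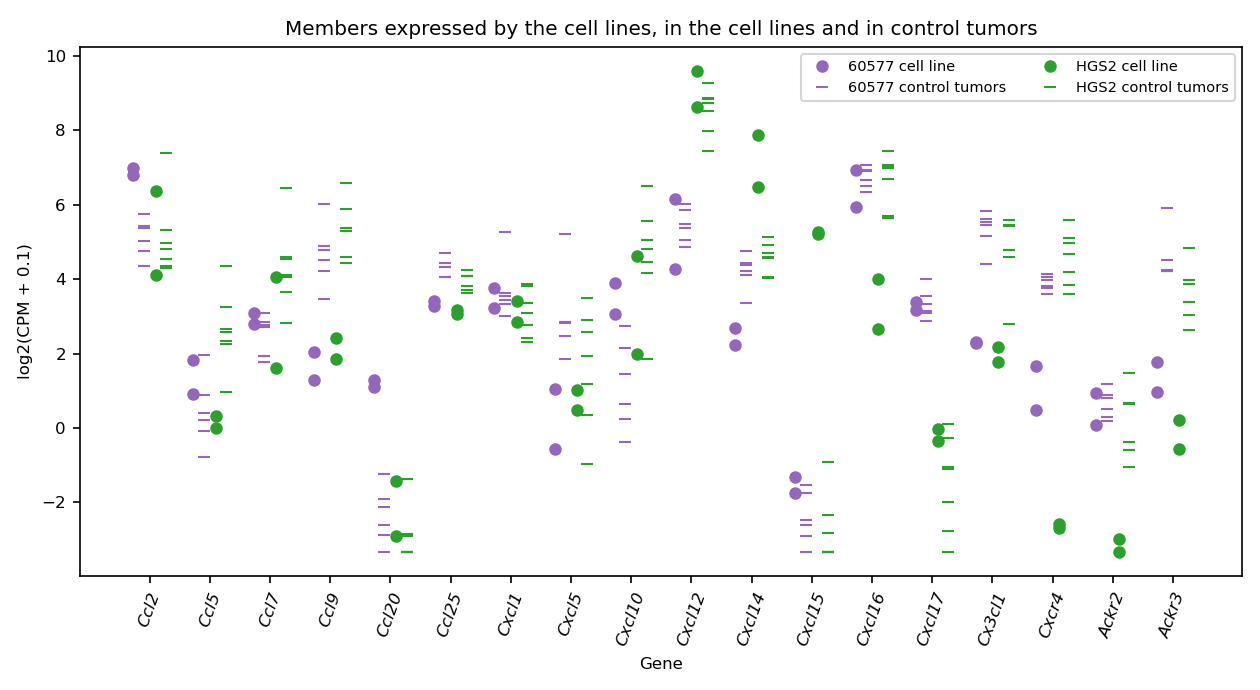
Levels of the 18 members kept in the cell lines, as log2(CPM + 0.1); circles are cultures and dashes control tumors, purple for 60577 and green for HGS2. Cxcl15 reaches 36.8 and 38.7 CPM in HGS2 cultures against at most 0.431 CPM in HGS2 tumors, and Cxcl17 is higher in 60577 in both settings.

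Genes downstream of the receptors and chemokines outside the 42 were counted as a frame. Of 20 genes of chemokine receptor signalling, 8 rose and 0 fell at 60577 TP1 (all genes 9.65% and 5.96%), 6 and 1 at TP2 (14.8% and 9.61%) and 9 and 1 at TP3 (14.2% and 10.2%). At TP3 these included Dock2 (log2 fold change 1.98), which drives lymphocyte migration, and Prkcb (1.88). In HGS2 none was called at any time, and in control tumors 8 of 20 were higher in HGS2, against 13.2% of all genes. Of 9 other chemokines and receptors tested, against the same shares, 4 rose at TP1, 6 rose and 1 fell at TP2, and 4 rose and 1 fell at TP3. Ccl22 (3.71), which attracts regulatory T cells, its receptor Ccr4 (3.71) and the B cell receptor Cxcr5 (3.71) rose at TP2, and Cxcl13 (3.11), the ligand of Cxcr5, rose at TP3. Cxcr2, the neutrophil receptor for Cxcl1, Cxcl2 and Cxcl5, was 2.35 at TP1, -1.97 at TP2 and -2.50 at TP3, each called. Without TP2 control replicate 2, Cxcr2 was at -1.0 (edgeR adjusted p = 0.18) at TP2 and -1.53 (edgeR adjusted p = 0.0541) at TP3 and lost both calls, whereas Ccl22 (3.41), Ccr4 (3.27) and Cxcr5 (3.26) at TP2 and Cxcl13 (2.75) at TP3 kept theirs. Without it the signalling genes counted 5 higher and 0 lower at TP2 and 8 and 0 at TP3, and the other chemokines and receptors 5 and 0 at both times.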

How the data were processed

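RNA was ribosome-depleted and sequenced paired-end with strand kept. Per the labels and the study's methods, the authors trimmed reads with Trim Galore 0.6.5, aligned them with STAR 2.7.0f to GRCm38, and deposited expected counts per gene from RSEM. The study's methods name an Ensembl annotation of GRCm38 for the counts. GENCODE M21 was used here for gene names, positions and exon lengths, and 55227 of the 55487 genes had an entry in it. The length and GC correction named in the study's methods is not in these counts and was not applied. Here these values were rounded, genes reaching 1 CPM in 25% or more of a table's libraries entered the fits (16241 in tumors, 13742 in cell lines, of 55487), and counts were scaled by TMM and tested with the quasi-likelihood test of edgeR 4.0.16 (R 4.3.3). The groups of a model shared 1 estimate of the spread, and both models were fitted together for differences between them. A call needed both an adjusted p below 0.05 and a log2 change larger than 1 in size. Alternatives were limma-voom (limma 3.58.1), DESeq2 1.42.0, no filter, other size factors, a replicate block, the pancreas genes as a covariate, all 17 HGS2 tumors, leaving out single libraries and, added after seeing the data, leaving out the 3 HGS2 tumors rich in pancreas genes. The members and lists were chosen with earlier results of these data known. Members given full statistics were the called ones, at most 10 per comparison, by size of change, and other members were named with fewer values or where a contrast with them was needed. The fitting code was tested on simulated data. Ccl19 had no unique match in the tables and is not reported here, nor is 1 marker list as a whole. No per-sample column was unmapped. With 3 to 4 tumors per group, precision is limited by the spread between tumors, and counts of 3 or fewer in a library are at its floor.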

Additional observations from a re-analysis of the deposited data

Results flagged for a closer look

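In groups of 4 tumors, 9 of 152 member-by-group sets had a single tumor far from the other 3 by Dixon's criterion (5.9%, where chance gives about 1 in 20). In 60577 at TP2, Cxcl10 was at 18.7 CPM in treated replicate 2 (others 4.03 to 5.05), Cxcl14 at 7.85 CPM in treated replicate 1 (others 3.76 to 3.94) and Ackr4 at 1.15 CPM in treated replicate 3 (others 2.42 to 2.59). At TP3, Ccl12 was at 4.42 CPM in treated replicate 3 (others 5.63 to 5.91) and Cx3cr1 at 51.9 CPM in treated replicate 4 (others 78.6 to 83.9). In HGS2, TP2 control replicate 3 had Cxcl3 at 8.5 CPM (others 0.0758 to 0.192) and Ccr9 at 2.36 CPM (others 0.455 to 0.504). HGS2 TP3 treated replicate 4 had Cxcl3 at 0.188 CPM and Cxcl17 at 0.338 CPM, with the other 3 at 0.

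Response differed between the models, by the interaction term of the edgeR fit, for Cxcl12 (-2.65, adjusted p = 0.0105) and Cxcl14 (-2.80, adjusted p = 0.0207) at TP1. At TP2 it differed for Cxcl5 (6.16, adjusted p = 0.00281), Ackr3 (2.88, adjusted p = 0.00392), Cxcl17 (5.30, adjusted p = 0.0101), Cxcl1 (2.67, adjusted p = 0.0192), Cxcl14 (2.00, adjusted p = 0.0301), Cxcl2 (4.91, adjusted p = 0.0381) and Ccl4 (2.96, adjusted p = 0.0494).

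The HGS2 TP3 tumor left out of the fits, treated replicate 1, lay above all 7 HGS2 control tumors for 6 of 38 members. The share of all genes above these controls was not counted, so this is a description and no result about the members. Cxcr3 was at 44.8 CPM (controls 1.04 to 12), Cxcr6 at 18 CPM (1.15 to 8.64), Ccr6 at 13.2 CPM (0.154 to 12), Ackr4 at 12.6 CPM (0.134 to 2.23), Ackr2 at 5.94 CPM (0.384 to 2.68) and Ccr9 at 4.98 CPM (0.455 to 2.36). Its marker sums were the highest of any HGS2 tumor for T cells (174 CPM), NK cells (8.6 CPM), adipocytes (405 CPM), eosinophils (14.2 CPM) and endothelium (381 CPM). Their part was not tested.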

How the results depend on the processing

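Counts of called members moved by over 1.5 times under few settings. From TP1 to TP2 in treated 60577 tumors, 17 became 10 with both models fitted together, where all genes went from 977 to 271. From TP2 to TP3, 1 became 2 by DESeq2, 2 by limma-voom and 3 with the pancreas genes as a covariate, where all genes went from 1278 to 1359, 1317 and 808. HGS2 at TP2 went from 0 to 1 by DESeq2, and all genes from 0 to 8. The TP1 response difference went from 2 to 5 by DESeq2 and to 4 with the pancreas covariate, and all genes from 235 to 721 and 505. The TP2 difference went from 7 to 4 by limma-voom, with all 17 HGS2 tumors, or with the replicate block. There all genes went from 1120 to 949, 761 and 679. With plain library totals the members' summed CPM was 958 in treated 60577 tumors at TP3, 1961 in treated HGS2 tumors at TP2 and 352 in 60577 cells. Leaving out 1 library gave 8 to 17 called members at 60577 TP1, 13 to 21 at TP2, 15 to 25 at TP3, 7 to 17 from TP1 to TP2, 1 to 2 from TP2 to TP3, 0 in each HGS2 comparison, 1 to 5 and 3 to 8 for the response differences, 15 to 17 between control tumors and 3 to 11 between cell lines. Ccl3 then ranged from -3.02 to 0.49 at 60577 TP2 and from -2.89 to 0.62 at TP3, and Cxcl2 from -3.71 to 0.30 at TP2, each positive only without TP2 control replicate 2. Of 752 values of named members under the other settings, 693 kept direction and call, 59 lost the call and 0 reversed, and of 851 with 1 library left out, 713 kept both, 135 lost the call and 3 reversed. No clear sign was seen that replicate numbers pair the tumors. The median correlation of same-numbered tumors was -0.04 in 60577 and -0.08 in HGS2 (highest 0.32 and 0.37). As values were centered within small groups, this cannot exclude pairing. The crossed block in the cell lines, added after seeing the data, gave 8 called members, as did the main fit. The cause of these shifts was not tested.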
